A study of Homo sapiens with 12 samples.

Results

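*ST3GAL6* (ENSG00000064225), *RBMS1* (ENSG00000153250) and *CCDC117* (ENSG00000159873) are 3 of the 63152 gene identifiers counted in OPM2 cells, an established human line derived from malignant plasma cells of multiple myeloma. They were chosen from these same measurements, because BKM120 raised each of them, 18DS did not, and the level with 18DS lay below the sum of the single-compound changes. All 3 were among the 13180 genes that passed the expression filter. Because that choice drew on all 4 groups of libraries, their levels and changes are given as a description, with intervals and with no test.

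Transcripts were measured by QuantSeq 3' mRNA sequencing after 2 h with 18DS at 250 nM, BKM120 at 1 µM, JQ1 at 250 nM or DMSO, the vehicle. 18DS is described by the submitters as a chimera that acts on both PI3K and BET proteins, BKM120 (buparlisib) is a PI3K inhibitor, and JQ1 occupies the bromodomains of BET proteins. Each group held 3 libraries from biological triplicates of the 1 cell line, 12 in all, and no group received JQ1 and BKM120 together. 18DS was given at a lower concentration than BKM120, so the structure of 18DS and its dose cannot be told apart where the 2 compounds are set side by side. Values are CPM, the counts of a gene scaled to a common library size, with TMM factors applied, and changes are log2 fold changes from an edgeR fit over the 12 libraries.

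PI3K signals through AKT, which holds the FOXO transcription factors in the cytoplasm, so that inhibition of PI3K lets them enter the nucleus and switch on their targets. BET proteins bind acetylated histones and promote transcription, and BET inhibitors lower *MYC* in many blood cancers. *ST3GAL6* encodes a Golgi sialyltransferase that caps galactose with sialic acid and contributes to the glycans that selectins recognise, and it has been studied in the homing of myeloma cells to bone marrow. *RBMS1* encodes a protein with RNA recognition motifs that was first described as a binder of single-stranded DNA upstream of *MYC*. *CCDC117* encodes a less studied coiled-coil protein reported to bind MMS19, a factor that delivers iron-sulfur clusters to enzymes of DNA metabolism.

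The promoters are shown because the 3 genes were chosen for a shared response. The RefSeq promoter table holds 4 start windows for *ST3GAL6* on chromosome 3, 2 for *CCDC117* on chromosome 22 and 1 for *RBMS1* on chromosome 2, and 1 window for each gene is printed, from 250 bases before the start to 50 bases after it. Capitals mark the motifs found, which were chosen after the sequences had been seen. These are TGTTTAC, the forkhead core that FOXO factors bind, and TGACGTGG, an element that XBP1 binds in the unfolded protein response. Both strands were searched, and no match of one overlapped a match of the other.
ST3GAL6, first start, GRCh38.p14, plus strand, chr3:98732012-98732311: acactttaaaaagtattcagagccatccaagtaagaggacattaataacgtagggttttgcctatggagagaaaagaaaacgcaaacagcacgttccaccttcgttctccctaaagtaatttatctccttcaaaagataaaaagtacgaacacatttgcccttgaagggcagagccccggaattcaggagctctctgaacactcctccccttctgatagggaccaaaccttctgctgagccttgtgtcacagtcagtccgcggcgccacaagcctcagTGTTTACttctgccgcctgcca
RBMS1, GRCh38.p14, minus strand, chr2:160493758-160494057: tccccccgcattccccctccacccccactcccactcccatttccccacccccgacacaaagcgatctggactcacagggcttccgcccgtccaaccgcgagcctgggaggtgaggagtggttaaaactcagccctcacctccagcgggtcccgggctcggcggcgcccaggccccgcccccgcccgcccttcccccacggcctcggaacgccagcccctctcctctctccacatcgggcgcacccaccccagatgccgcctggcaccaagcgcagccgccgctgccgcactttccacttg
CCDC117, first start, GRCh38.p14, plus strand, chr22:28772445-28772744: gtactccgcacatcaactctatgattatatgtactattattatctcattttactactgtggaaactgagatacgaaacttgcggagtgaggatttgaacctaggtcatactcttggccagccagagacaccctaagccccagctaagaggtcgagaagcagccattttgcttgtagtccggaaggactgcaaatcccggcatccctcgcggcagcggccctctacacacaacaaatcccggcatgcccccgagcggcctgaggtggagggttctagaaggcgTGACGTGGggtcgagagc

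TGTTTAC was found once, in the *ST3GAL6* window above, where its first letter is base 29 after the start. Of all 35116 promoter windows of this length 3.42% held it on either strand, and 4.19% of the 27305 genes held it in at least 1 window. TGACGTGG was found once, in the *CCDC117* window above, from base 33 after the start, and 0.729% of all windows and 0.927% of genes held it. CACGTG, the E-box read by MYC and MAX, was searched as well and is held by 7.26% of all windows, but these letters were not in the 7 windows of the 3 genes. The *RBMS1* window held none of the 3 motifs. Its share of G and C was 71.0%, against 47.0% in the *ST3GAL6* window and 52.7% in the *CCDC117* window printed above, but the windows not printed held 45.7% to 72.7% for *ST3GAL6* and 81.0% for *CCDC117*. A match of letters is no evidence that a factor was bound, and no binding was measured.

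Total counts were 5882214 to 7292895 with 18DS, 5563788 to 6883854 with BKM120, 5501895 to 7692013 with JQ1 and 5940610 to 6594995 with DMSO. The compounds were visible in genes known for their action. *MYC* averaged 2.51 ± 1.12 CPM with 18DS, 51.3 ± 4.68 CPM with BKM120, 2.54 ± 0.343 CPM with JQ1 and 29.3 ± 2.61 CPM with DMSO (SD, n = 3 each). *KLF2*, a gene held down by PI3K and AKT in lymphocytes, averaged 130 ± 27.5 CPM with 18DS, 292 ± 23.9 CPM with BKM120, 49.5 ± 9.67 CPM with JQ1 and 41.9 ± 3.62 CPM with DMSO (SD, n = 3 each). *IRS2*, an insulin receptor adaptor gene, averaged 24.4 ± 2.23 CPM with 18DS and 24.8 ± 5.18 CPM with BKM120, against 8.50 ± 1.53 CPM with DMSO (SD, n = 3 each). Further reference genes of the compounds were *BBC3* and *TP53INP1*. *BBC3* had 7.19, 6.15 and 8.84 CPM with 18DS, 17.7, 19.8 and 16 CPM with BKM120, and 2.8, 4.19 and 4.33 CPM with DMSO. *TP53INP1* had 16.5, 11.1 and 14.7 CPM with 18DS, 35.9, 42.1 and 39.5 CPM with BKM120, and 10.3, 7.73 and 8.66 CPM with DMSO. The summed plasma cell markers, *SDC1* and *TNFRSF17* among them, held 1640 to 1820 CPM with 18DS, 2180 to 2210 CPM with BKM120, 1820 to 1870 CPM with JQ1 and 2330 to 2430 CPM with DMSO, and 6 of their 9 tested members fell with 18DS, 2 fell and 1 rose with BKM120, and 6 fell with JQ1 by edgeR. Over all tested genes, 11% fell with 18DS, 4.14% fell and 4.07% rose with BKM120, and 3.45% fell with JQ1. The part of this shift in the results below was not tested. The sums of the T and NK cell, myeloid, and epithelial and fibroblast markers stayed at or below 3.15 CPM in every library. On the third principal component, 18DS replicate 2 scored -26.7, far from the 13.7 and 9.33 of 18DS replicates 1 and 3, and the changes of the 3 genes with 18DS were also computed without it.

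*ST3GAL6* had 35.9, 37.0 and 35.7 CPM in the 18DS libraries, 93.7, 88.1 and 92.5 CPM in the BKM120 libraries, 24.9, 25.6 and 25 CPM in the JQ1 libraries, and 34.2, 36.7 and 35.3 CPM in the DMSO libraries. The BKM120 libraries lay far above the rest, the 18DS and DMSO libraries overlapped, and the JQ1 libraries were lowest, with no overlap with any other group. How many of all tested genes had JQ1 libraries set apart in this way was not counted. The counts behind these levels were 141 to 597 per library. From highest to lowest the group means were 91.5 ± 2.93 CPM with BKM120, 36.2 ± 0.722 CPM with 18DS, 35.4 ± 1.28 CPM with DMSO and 25.2 ± 0.394 CPM with JQ1 (SD, n = 3 each). Only the neighbours 18DS and DMSO in this order lay within the spread of their libraries.

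*RBMS1* had 29.6, 33.4 and 35.8 CPM in the 18DS libraries, 80.2, 83.0 and 83.0 CPM in the BKM120 libraries, 36.1, 36.0 and 38.5 CPM in the JQ1 libraries, and 50.8, 49.6 and 49.5 CPM in the DMSO libraries. Here the 18DS libraries were below the DMSO libraries and next to the JQ1 libraries, which they did not quite reach, and the BKM120 libraries were again above all others. The group means were 82.1 ± 1.63 CPM with BKM120, 50 ± 0.734 CPM with DMSO, 36.9 ± 1.38 CPM with JQ1 and 32.9 ± 3.15 CPM with 18DS (SD, n = 3 each). The last 2 neighbours were the closest, and the 95% interval of their log2 difference, -0.37 to 0.037 for 18DS against JQ1, held 0.

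*CCDC117* had 47.6, 36.3 and 42.6 CPM in the 18DS libraries, 77.0, 78.7 and 78.0 CPM in the BKM120 libraries, 44.7, 45.1 and 48.3 CPM in the JQ1 libraries, and 46.2, 46.9 and 46.2 CPM in the DMSO libraries. Apart from the BKM120 libraries, the groups overlapped, and the low 18DS value was that of replicate 2. The group means were 77.9 ± 0.873 CPM with BKM120, 46.4 ± 0.390 CPM with DMSO, 46.0 ± 1.96 CPM with JQ1 and 42.2 ± 5.66 CPM with 18DS (SD, n = 3 each). The 3 lower groups could not be put in order beyond the spread of their libraries. In bulk libraries such as these, a change in every cell and a change in the share of cells that hold the transcript cannot be told apart.

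**Figure D1:**
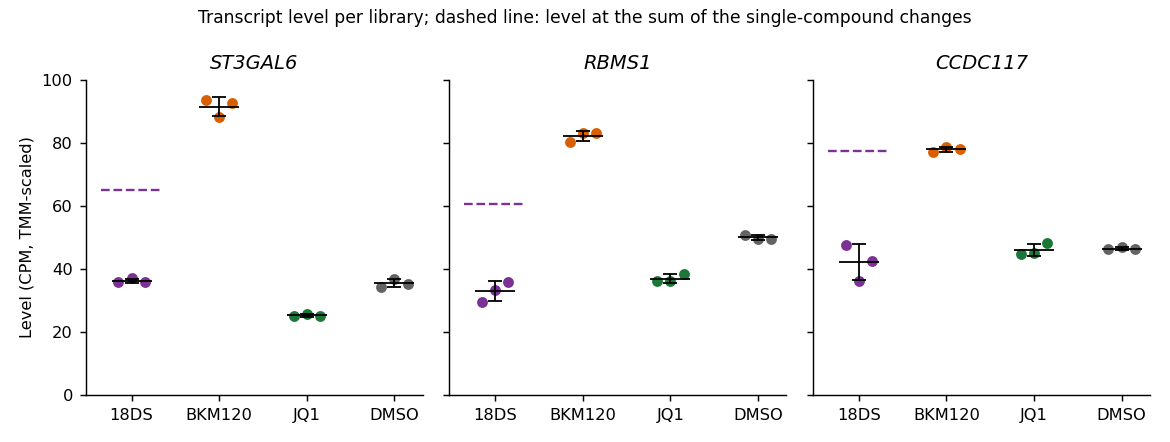
Level of *ST3GAL6*, *RBMS1* and *CCDC117* (CPM on TMM-scaled library sizes, y axis) in each library of the 4 groups (x axis). Points are libraries, and horizontal bars with whiskers are the mean and SD of 3. The dashed line is the level that the summed log2 changes of JQ1 and BKM120 give, 65.1, 60.6 and 77.4 CPM. BKM120 was given at a higher concentration than 18DS, so this line is not matched to the dose of 18DS. In all 3 panels the BKM120 libraries sit above the other 9, and the 18DS libraries sit below the dashed line.

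The comparison of BKM120 with DMSO shows the rise for which the genes were chosen. *ST3GAL6* was 2.58-fold higher with BKM120 (log2 fold change 1.37, SE 0.09, 95% interval 1.18 to 1.56). *CCDC117* was 1.68-fold higher (0.75, SE 0.10, interval 0.55 to 0.94) and *RBMS1* 1.64-fold higher (0.72, SE 0.09, interval 0.53 to 0.90). The interval of *ST3GAL6* lay above both others, which covered nearly the same range. By edgeR's quasi-likelihood test at a Benjamini-Hochberg adjusted p under 0.05, 8.21% of all tested genes differed between BKM120 and DMSO and 4.07% were higher with BKM120. The split of 536 higher and 546 lower became 439 and 809 with library totals and 734 and 431 with upper-quartile scaling. In 3.39% of tested genes all BKM120 libraries lay above the other 9, as they did for the 3 genes. For every other separation of groups described here or below, the share of all tested genes was not counted.

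Against DMSO, 18DS left the 3 genes in different places. *RBMS1* was 1.52-fold lower with 18DS (log2 fold change -0.60, SE 0.10, interval -0.80 to -0.40). *ST3GAL6* differed by 0.033 (SE 0.10, interval -0.17 to 0.23), a value of -0.039 when counts were scaled by library totals alone. *CCDC117* differed by -0.13 (SE 0.10, interval -0.33 to 0.070), and without 18DS replicate 2 by -0.035. None of these intervals reached the smallest BKM120 change of the 3 genes, but their choice made that likely, and it is no test. Over all tested genes 21% differed between 18DS and DMSO, as 9.96% were higher and 11% lower with 18DS by the same test. That split of 1313 higher and 1456 lower became 898 and 2021 with library totals and 1675 and 1213 with upper-quartile scaling. Of the 536 genes that BKM120 raised, 267 were also higher with 18DS and 269 (2.04% of tested genes) were not. Among these 269, 22 genes (0.167% of tested genes) were lower with 18DS. The 3 genes were chosen on these contrasts, so that nothing about them is read from these counts.

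JQ1 divided the genes in another way. *ST3GAL6* was 1.41-fold lower with JQ1 than with DMSO (log2 fold change -0.49, SE 0.10, interval -0.70 to -0.28), and *RBMS1* was 1.35-fold lower (-0.44, SE 0.10, interval -0.63 to -0.24). *CCDC117* differed by -0.0093 (SE 0.10, interval -0.21 to 0.19), a value that was 0.022 with upper-quartile scaling. Over all tested genes 6.08% differed between JQ1 and DMSO, as 2.63% were higher and 3.45% lower with JQ1. That split of 346 higher and 455 lower became 306 and 555 with library totals and 413 and 379 with upper-quartile scaling.

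18DS and JQ1 were given at the same 250 nM for the same 2 h. At this matched dose *ST3GAL6* was 1.44-fold higher with 18DS than with JQ1 (log2 fold change 0.52, SE 0.10, interval 0.32 to 0.73). For *RBMS1* the difference was -0.17 (SE 0.10, interval -0.37 to 0.037) and for *CCDC117* -0.12 (SE 0.10, interval -0.32 to 0.079). The last was -0.023 without 18DS replicate 2. Neither interval reached a rise of the size that BKM120 gave in any of the 3 genes, which their choice below the sum also made likely. Over all tested genes 4.16% differed between 18DS and JQ1 by edgeR, 2.37% higher and 1.78% lower with 18DS. The split of 313 higher and 235 lower became 208 and 414 with library totals.

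Added on the log2 scale, the changes of JQ1 and BKM120 gave 65.1 CPM for *ST3GAL6*, against the 36.2 CPM observed with 18DS. The BKM120 part of this sum was measured at a higher concentration than that of 18DS. The sum is therefore not matched to the dose of 18DS, and the part of dose in the departures was not tested. For *RBMS1* the sum gave 60.6 CPM, against 32.9 CPM observed, and for *CCDC117* 77.4 CPM, against 42.2 CPM observed. The log2 departures from the sum were -0.85 for *ST3GAL6* (SE 0.14, interval -1.12 to -0.57), -0.88 for *RBMS1* (SE 0.14, interval -1.16 to -0.61) and -0.87 for *CCDC117* (SE 0.14, interval -1.15 to -0.59). The observed levels were thus 55.7%, 54.2% and 54.8% of the level at the sum in that order. Without 18DS replicate 2 the departures were -0.85 for *ST3GAL6*, -0.88 for *RBMS1* and -0.77 for *CCDC117*. The sum itself differed more than the departure did, since its log2 value was 0.88 for *ST3GAL6*, 0.28 for *RBMS1* and 0.74 for *CCDC117*.

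**Figure D2:**
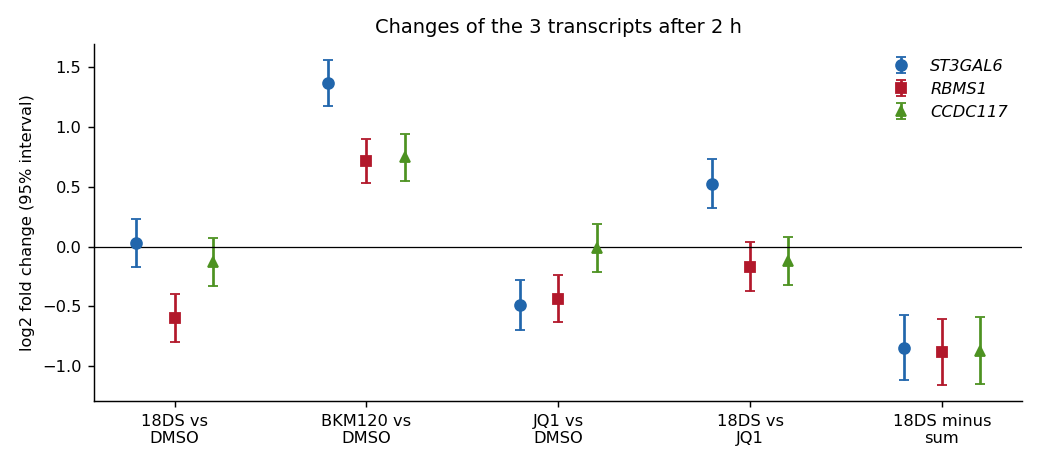
Log2 fold changes (y axis) of *ST3GAL6* (circles), *RBMS1* (squares) and *CCDC117* (triangles) in 5 comparisons (x axis), with whiskers for the 95% interval of the edgeR fit. The BKM120 changes run from 0.72 to 1.37 and the departures of 18DS from the sum of JQ1 and BKM120 from -0.88 to -0.85. The changes against DMSO run from -0.60 to 0.033 with 18DS and from -0.49 to -0.0093 with JQ1.

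Departures from the sum were called in 16 of 13180 tested genes (0.121%) at an edgeR adjusted p under 0.05, with 0.0683% above and 0.0531% below the sum. These 9 above and 7 below became 9 and 14 with upper-quartile scaling. The reference gene *KLF2*, which was also higher with 18DS than with DMSO, was among those called below the sum. Its departure ran from -1.56 to -1.26 with 1 library left out, and its call was lost in 8 of 12 such fits. The full pattern (higher with BKM120, not higher with 18DS, below the sum) was met by 6 genes, 0.0455% of those tested. The other 3 were *IL6ST*, which encodes the gp130 subunit of the interleukin-6 receptor, *BRD8*, a bromodomain gene of a histone acetyltransferase complex, and *PRR15*. Their departures were -0.78 for *IL6ST* (SE 0.16), -0.90 for *BRD8* (SE 0.20) and -1.20 for *PRR15* (SE 0.26). With BKM120 they were higher by 0.97 (*IL6ST*), 0.77 (*BRD8*) and 1.15 (*PRR15*) on the log2 scale. The 6 genes had departures of -1.20 to -0.78 and a mean level of 12.1 CPM (*PRR15*) to 53.1 CPM (*CCDC117*), and the 3 described here had the highest levels of the 6.

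Membership at the edge was narrow. *BRD8* and *PRR15* lay just inside the threshold, both at an edgeR adjusted p of 0.0459. *HBP1*, a transcriptional repressor gene, lay just outside at 0.0545 with a departure of -1.02 (SE 0.23), followed by *CFLAR*, which encodes the caspase inhibitor FLIP, at 0.059 with a departure of -0.65 (SE 0.15). Across 21 other settings the number of genes that met the pattern ran from 3 to 10, and *ST3GAL6*, *RBMS1* and *CCDC117* were among them in 21 of 21. It fell to 3 when BKM120 replicate 1 or 3, DMSO replicate 2 or 3, or any 1 of JQ1 replicates 1, 2 and 3 was left out, or with limma-voom. The genes were picked from such a list, so that this count describes the choice and adds no independent support.

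Of the 3 pairs among the genes, *RBMS1* and *CCDC117* had the closest patterns over the 4 groups. The root-mean-square difference of their group means of log2 CPM, each centred on the mean of the 4 groups, was 0.213, against 0.334 for *ST3GAL6* and *RBMS1* and 0.391 for *ST3GAL6* and *CCDC117*. Other genes were closer to each of them. Among 9567 genes with a symbol and a mean of at least 5 CPM, closeness to *CCDC117* gave *RBMS1* rank 358 and *ST3GAL6* rank 5790. Closeness to *RBMS1* gave *CCDC117* rank 52 and *ST3GAL6* rank 441. Closeness to *ST3GAL6* gave *RBMS1* rank 42 and *CCDC117* rank 75. Of these genes, the nearest to *ST3GAL6* was *HBP1*, at 0.0894. Next came *PLAG1*, a zinc finger gene (0.219), *SAMD9* (0.239), *MANEA*, a Golgi mannosidase gene (0.239), and *IL6ST* (0.240). *HBP1* averaged 11.9 CPM with 18DS, 28.9 CPM with BKM120, 8.47 CPM with JQ1 and 10.1 CPM with DMSO. It thus shared with *ST3GAL6* the high BKM120 value and the low JQ1 value.

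The nearest to *RBMS1* were *MTMR11* (0.0799), *INAVA* (0.0884), *SAMD9L* (0.101), *GAB1*, an adaptor gene of growth factor and PI3K signalling (0.112), and *KANSL1*, a subunit gene of a histone acetyltransferase complex (0.114). *GAB1* averaged 7.99 CPM with 18DS, 17.8 CPM with BKM120, 7.65 CPM with JQ1 and 9.96 CPM with DMSO. Among the nearest to *CCDC117* were *AKAP13*, a kinase anchor gene (0.0614), the pseudogene *CCDC144CP* (0.0686), *MXI1*, a MAX partner that opposes MYC (0.0698), and *N4BP2L1* (0.0878). *MXI1* averaged 21.6 CPM with 18DS, 40.5 CPM with BKM120, 21.3 CPM with JQ1 and 24.2 CPM with DMSO. The differences to the nearest genes were smaller for *RBMS1* and *CCDC117* than for *ST3GAL6*, which apart from *HBP1* had no gene within 0.2.

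**Figure D3:**
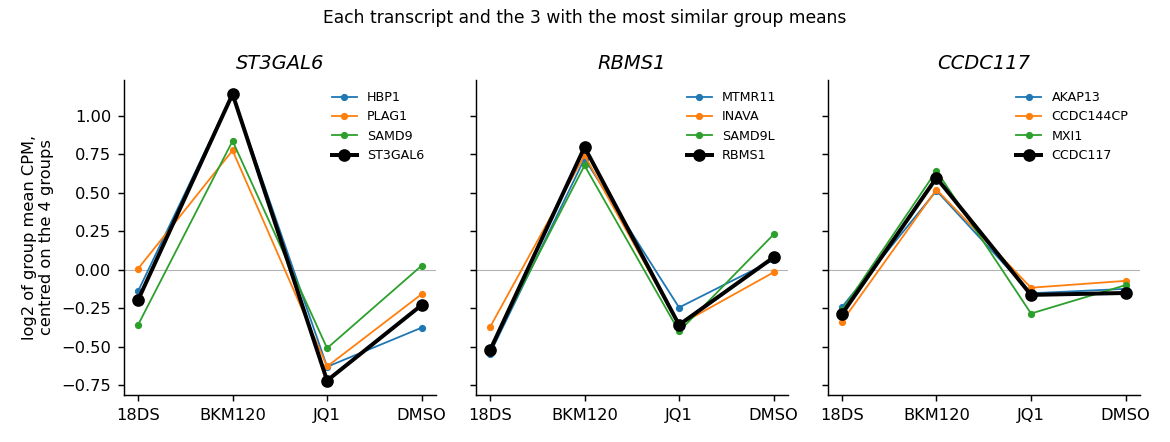
Log2 of the group mean CPM, centred on the 4 groups (y axis), by group (x axis) for *ST3GAL6*, *RBMS1* and *CCDC117* (black) and the 3 genes nearest to each (colours). All lines peak at BKM120, and *HBP1* (28.9 CPM with BKM120) runs closest to *ST3GAL6*.

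*ST3GAL6* was set beside the other genes that make, transfer or remove sialic acid, of which 18 of 28 were tested. With BKM120, 1 of these rose by edgeR, *ST8SIA4*, which builds polysialic acid (log2 fold change 0.95, SE 0.18, adjusted p = 0.000754). It had 10.7, 10.4 and 8.69 CPM with 18DS, 18.2, 14.6 and 14.9 CPM with BKM120, 7.91, 8.91 and 12 CPM with JQ1, and 8.98, 8.38 and 7.16 CPM with DMSO. Its BKM120 libraries were above the other 9, as for *ST3GAL6* and for 3.39% of all tested genes, and its departure from the sum was -0.93 (SE 0.26, adjusted p = 0.189). No gene of the list fell with BKM120 by edgeR, DESeq2 or limma-voom, 2 did at an unadjusted p under 0.05, and 1 did when library totals alone set the scale. In all tested genes 4.07% rose and 4.14% fell.

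Of the other 5 ST3GAL genes, 1 changed against DMSO by edgeR, beside 21% (18DS), 8.21% (BKM120) and 6.08% (JQ1) of all tested genes. *ST3GAL1*, which sialylates core O-glycans, fell by 0.96 on the log2 scale with 18DS (SE 0.13, adjusted p = 8.34e-07) and by 0.87 with JQ1 (SE 0.13, adjusted p = 9.35e-06). Its levels were 23.3, 18.4 and 20.4 CPM with 18DS, 36.7, 36.0 and 30.2 CPM with BKM120, 22.5, 24.6 and 19.6 CPM with JQ1, and 45.8, 40.7 and 34.3 CPM with DMSO. The 18DS and JQ1 libraries overlapped each other and lay below all BKM120 and DMSO libraries. *ST3GAL4*, which like *ST3GAL6* contributes to selectin ligands, averaged 10.5 ± 0.862 CPM with 18DS, 10.5 ± 1.35 CPM with BKM120, 8.43 ± 0.779 CPM with JQ1 and 11.2 ± 2.58 CPM with DMSO (SD, n = 3 each). With BKM120 its log2 fold change was -0.077 (SE 0.18, adjusted p = 0.856), and those of *ST3GAL2*, *ST3GAL3* and *ST3GAL5* were -0.080 (SE 0.22), 0.30 (SE 0.50) and -0.11 (SE 0.29), none of which passed the test.

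With 18DS, 3 of the 18 genes fell and 1 rose, against 11% and 9.96% of all tested genes. Beside *ST3GAL1*, *NANP*, a phosphatase of sialic acid synthesis, fell by 1.17 (SE 0.30, adjusted p = 0.0048) at low levels, 2.30 ± 0.897 CPM with 18DS against 5.10 ± 0.0901 CPM with DMSO (SD, n = 3 each). The sialidase gene *NEU1* rose by 0.40 (SE 0.14, adjusted p = 0.0338), a call that was lost when library totals alone set the scale, without an expression filter, with DESeq2, and without 18DS replicate 3, DMSO replicate 1 or DMSO replicate 3 (0.31 to 0.40). The edgeR value of *ST6GALNAC2* was -0.24 (SE 0.09, adjusted p = 0.0492), and its call was lost with DESeq2, limma-voom and upper-quartile scaling and in 10 of 12 fits that left out 1 library (-0.24 to -0.19). The median log2 fold change of the 18 genes was -0.077 with 18DS, -0.10 with BKM120 and -0.060 with JQ1, beside -0.0033, 0.00019 and 0.0030 over all tested genes. Between 18DS and JQ1, 0 of the 18 passed by edgeR, DESeq2 or limma-voom, with 1 higher and 2 lower at an unadjusted p under 0.05, beside 4.16% of all tested genes called by edgeR.

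**Figure D4:**
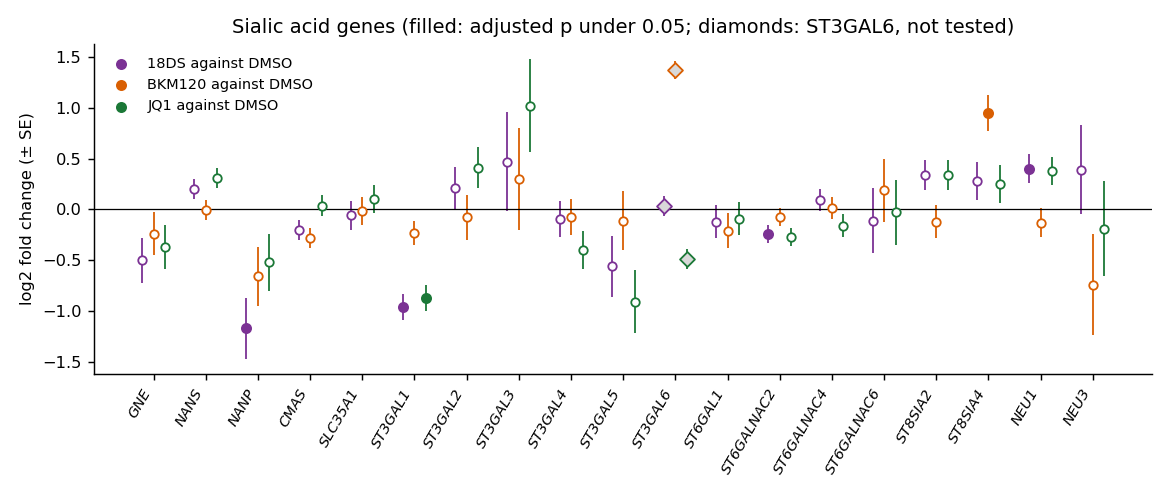
Log2 fold change against DMSO (y axis, whiskers SE) of the tested sialic acid genes (x axis) with 18DS, BKM120 and JQ1. Filled circles passed edgeR's test at an adjusted p under 0.05, open circles did not, and diamonds are *ST3GAL6*, which was chosen on these values; *ST3GAL6* at 1.37 and *ST8SIA4* at 0.95 stand above the others with BKM120.

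Selectin ligands also need fucosyltransferases, core enzymes and protein carriers, and 16 of 25 such genes and homing receptors were tested. *SELPLG*, which encodes the P-selectin ligand PSGL-1, had 37.4, 34.9 and 43.9 CPM with 18DS, 68.6, 79.3 and 63.6 CPM with BKM120, 44.7, 44.0 and 41.3 CPM with JQ1, and 65.4, 50.9 and 61.0 CPM with DMSO. The 18DS and JQ1 libraries lay below all BKM120 and DMSO libraries. It fell by 0.61 with 18DS (SE 0.11, adjusted p = 7.94e-05) and by 0.45 with JQ1 (SE 0.11, adjusted p = 0.00639). The JQ1 call was lost without DMSO replicate 1 or JQ1 replicate 3 (-0.41 to -0.37). With BKM120 it differed by 0.26 (SE 0.10, adjusted p = 0.117).

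With BKM120, *SPN*, which encodes the sialylated surface protein CD43, rose by 0.31 (SE 0.09, adjusted p = 0.0219), a call lost without BKM120 replicate 3, DMSO replicate 2 or DMSO replicate 3 (0.21 to 0.32). With 18DS, *B3GNT2*, which extends the glycan chains, rose by 0.51 (SE 0.15, adjusted p = 0.0117), or by 0.41 without DMSO replicate 1, where the call was lost. These 2 and *SELPLG* were the called genes of the list in the comparisons with DMSO, in which 21% (18DS), 8.21% (BKM120) and 6.08% (JQ1) of all tested genes were called. *FUT7*, the fucosyltransferase gene of leukocyte selectin ligands, had at most 1 count in any library. *FUT3*, *FUT6* and *FUT9* had at most 2 counts in any library, and *FUT4* had 1 to 13. *FUT5* passed the filter, with group means of 40.5 CPM with 18DS, 35.8 CPM with BKM120, 37.4 CPM with JQ1 and 35.2 CPM with DMSO. *CXCR4*, the homing receptor gene, averaged 48.7 ± 1.9 CPM with 18DS, 53.0 ± 3.87 CPM with BKM120, 44.7 ± 3.6 CPM with JQ1 and 46.9 ± 3.81 CPM with DMSO (SD, n = 3 each) and was not called.

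*RBMS1* was the 1 gene of its family that passed the filter. *RBMS2* had 0 to 3 counts per library and *RBMS3* 0 to 2. Of 11 other tested genes whose proteins bind single-stranded DNA or RNA, several of them at the *MYC* promoter, 4 fell and 1 rose with 18DS, against 11% and 9.96% of all tested genes. With upper-quartile scaling 4 fell and 3 rose, and with library totals 4 fell and 0 rose. *FUBP1*, which activates *MYC* through its far upstream element, fell by 0.37 (SE 0.08, adjusted p = 0.000421), to 165, 143 and 152 CPM with 18DS, against 199, 202 and 196 CPM with DMSO. *PURB* fell by 0.52 (SE 0.13, adjusted p = 0.00316), *CNBP* by 0.31 (SE 0.08, adjusted p = 0.00484) and *PCBP1* by 0.54 (SE 0.14, adjusted p = 0.0143). The *PCBP1* call was lost without DMSO replicate 1 (-0.49), and the gene that rose was *KHSRP* (0.23, SE 0.08, adjusted p = 0.0252). The *KHSRP* call was lost with library totals and without 18DS replicate 2, DMSO replicate 1 or DMSO replicate 2 (0.15 to 0.24). At the matched dose, *PURB* was lower with 18DS than with JQ1 by -0.49 (SE 0.13, adjusted p = 0.025) and *KHSRP* higher by 0.26 (SE 0.08, adjusted p = 0.0427). The *PURB* call was lost without 18DS replicate 2 or 3 or JQ1 replicate 2 or 3 (-0.50 to -0.46), and the *KHSRP* call with limma-voom, with library totals and without 18DS replicate 2 or 3, DMSO replicate 2 or any of the 3 JQ1 libraries (0.18 to 0.30).

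With BKM120 0 of the 11 genes passed edgeR's test, although 2 were higher and 3 lower at an unadjusted p under 0.05. DESeq2 and limma-voom called 1 lower each, and edgeR called 8.21% of all tested genes. With JQ1 0 of 11 passed edgeR, DESeq2 or limma-voom, and 1 was higher and 1 lower at an unadjusted p under 0.05, beside 6.08% of all tested genes called by edgeR. Counts this low in 11 genes are near those shares. The median log2 fold change of the 11 genes was -0.20 with 18DS, -0.091 with BKM120 and -0.032 with JQ1.

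All 24 other genes of the iron-sulfur list set beside *CCDC117* were tested. *MMS19* averaged 97.0 ± 15.2 CPM with 18DS, 91.2 ± 4.99 CPM with BKM120, 93.9 ± 6.37 CPM with JQ1 and 93.7 ± 6.01 CPM with DMSO (SD, n = 3 each), and its libraries overlapped between the groups. *CIAO1* and *CIAO2B*, its partners in cluster delivery, were not called in any comparison with DMSO either. *ABCE1*, an iron-sulfur protein of ribosome recycling, fell by 0.32 with 18DS (SE 0.08, adjusted p = 0.00452), to 79.1, 76.9 and 82.1 CPM with 18DS, against 96.9, 105 and 95.5 CPM with DMSO.

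With *NUBP1*, a scaffold gene of cluster assembly, 2 of the 24 genes fell with 18DS, against 11% of all tested genes. The edgeR value of *NUBP1* was -0.39 (SE 0.13, adjusted p = 0.0359), and its call was lost with DESeq2, with upper-quartile scaling, without an expression filter, and in 6 of 12 fits that left out 1 library (-0.39 to -0.29). With BKM120, *POLD1*, a catalytic subunit gene of DNA polymerase delta, rose by 0.47 (SE 0.14, adjusted p = 0.0266), a call lost without BKM120 replicate 1, BKM120 replicate 3, DMSO replicate 1 or DMSO replicate 2 (0.38 to 0.48). It was the 1 called gene of the 24 with BKM120, with which 4.07% of all tested genes rose. With JQ1 0 of 24 genes passed by edgeR, DESeq2 or limma-voom, and 0 had an unadjusted p under 0.05, beside 6.08% of all tested genes called by edgeR. The median log2 fold change of the 24 genes was 0.038 with 18DS, -0.00029 with BKM120 and 0.017 with JQ1.

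The gene next to *CCDC117* on one side is *XBP1*, the plasma cell and unfolded protein response factor gene, on the opposite strand. *XBP1* had 652, 507 and 504 CPM with 18DS, 714, 765 and 699 CPM with BKM120, 628, 666 and 679 CPM with JQ1, and 831, 794 and 785 CPM with DMSO. All treated libraries were below the DMSO libraries, those of 18DS replicates 2 and 3 most. It fell by 0.53 with 18DS (SE 0.08, adjusted p = 5.36e-06) and by 0.29 with JQ1 (SE 0.08, adjusted p = 0.020). The JQ1 call was lost without DMSO replicate 1 or 2 or any of the 3 JQ1 libraries (-0.31 to -0.26). With BKM120, which gave the highest *CCDC117* level, *XBP1* differed by -0.15 (SE 0.08, adjusted p = 0.267). On the other side, *HSCB*, a co-chaperone gene of iron-sulfur cluster assembly, had low levels. Its group means were 2.37 CPM with 18DS, 3.92 CPM with BKM120, 2.28 CPM with JQ1 and 4.04 CPM with DMSO. Its log2 fold change was -0.75 with 18DS (SE 0.33), -0.043 with BKM120 (SE 0.31) and -0.81 with JQ1 (SE 0.33), and it was not called.

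Near *ST3GAL6*, the annotation (GENCODE 29, used here for gene order and strand alone) places *DCBLD2*, a neuropilin-like receptor gene, and the antisense RNA *ST3GAL6-AS1* on the opposite strand, both overlapping it. The strand setting of the counting is not given in the sources used here, so reads of overlapping genes may not be told apart. *DCBLD2* had 26.6, 32.0 and 29.2 CPM with 18DS, 24.6, 26.9 and 30.9 CPM with BKM120, 20.6, 23.8 and 22 CPM with JQ1, and 16.6, 18.2 and 19.5 CPM with DMSO. It rose by 0.69 with 18DS (SE 0.13, adjusted p = 0.000143) and by 0.60 with BKM120 (SE 0.13, adjusted p = 0.00257), and so rose with the compound that left *ST3GAL6* near its DMSO level. *ST3GAL6-AS1* had 7 to 20 counts per library and was not called. Its group means were 2.11 CPM with 18DS, 2.14 CPM with BKM120, 2.28 CPM with JQ1 and 1.51 CPM with DMSO. *PDLIM1P4*, a pseudogene overlapping on the same strand, and *RNU6-26P*, on the opposite strand, had 32 and 40 counts in all 12 libraries. *CPOX*, the next protein-coding gene on one side, was not called against DMSO. It was higher with 18DS than with JQ1 by 0.68 (SE 0.19, edgeR adjusted p = 0.0487). That call was lost in 7 of 12 fits that left out 1 library (0.57 to 0.79). The protein-coding neighbours of *RBMS1* are *ITGB6*, with 1 count in all 12 libraries, and *TANK*, an NF-kB regulator gene with group means of 5.11 to 6.73 CPM, which was not called. No other identifier had counts within 5% of those of *ST3GAL6*, *RBMS1* or *CCDC117* in every library, and the pseudogene *RBMS1P1* had 0 to 9 counts per library.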

How the data were processed

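The authors deposited raw counts per Ensembl gene in 1 table of 12 libraries. Per the submitters' processing notes, reads went through tools that include HISAT2 2.1.0, cutadapt 1.7, FastQC 0.11.5, featureCounts and SAMtools 1.9, with hg19 as the genome build. The annotation release and the strand setting were not found in these notes. Promoter sequences are RefSeq's on GRCh38.p14, and gene order comes from GENCODE. Symbols matched 51662 of 63152 identifiers.

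The re-analysis took the counts as deposited. One robust quasi-likelihood model was fitted in edgeR 4.0.16 (R 4.3.3) to the 12 libraries with group as the only term, after filterByExpr (minimum count 10, minimum total count 15) and TMM. The 95% intervals come from that model. Calls rest on an adjusted p under 0.05 (Benjamini-Hochberg, 13180 genes, each contrast on its own). Alternatives were DESeq2 1.42.0, voom in limma 3.58.1, other scalings and filters, a replicate block, and fits without 1 library. In counts simulated for BKM120 against DMSO over 13180 genes, 42.2% of the 1.5-fold changes, 73.9% of the 2-fold and 94% of the 4-fold were recovered. Of 151 calls, 10 were false. The simulation changed 64, 69 and 67 genes at these folds and left all others equal, whereas 1082 genes were called in the data. Recovery in the data may therefore differ from these shares.

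The 3 genes and the gene lists were chosen with earlier results of these data known. The rule for named genes took the 3 genes, the 5 nearest to each, the 6 genes that meet the pattern, up to 4 called genes per list and contrast with DMSO, neighbours, and reference genes of the compounds. *CFLAR* and *HBP1* at the threshold, *KHSRP*, *ST3GAL2* to *ST3GAL5*, *CXCR4*, *FUT3* to *FUT7*, *FUT9*, *RBMS2*, *RBMS3*, *MMS19*, *CIAO1* and *CIAO2B* were named after their values were seen. Some genes that this rule takes are not reported here. All 12 columns of the table were used. P-values set a difference against the spread between libraries within groups, pooled over the 4 groups of 3 and moderated across genes. Total counts of 5501895 to 7692013 limit the precision of low genes.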

Additional observations from a re-analysis of the deposited data

How the results depend on the processing

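The limit for a move was the pooled SD of log2 CPM between replicates, scaled up for the groups that a contrast combines. It is thus wider than the spread between replicates itself. Of the alternative values of the 3 genes, 314 moved by less than this limit, and 1, *ST3GAL6* with 18DS against DMSO, moved to -0.039 with library totals. The number of genes that meet the pattern was 10 with upper-quartile scaling, 10 with no expression filter and 3 with limma-voom, and 3 to 7 with 1 library left out. Genes that departed from the sum numbered 45 with no filter, 8 with limma-voom and 10 without the robust option, against 16 as reported, and 3 to 31 with 1 library left out. With 1 library left out the genes called were 105 to 1027 for 18DS against JQ1, 482 to 1564 for BKM120 against DMSO and 504 to 1021 for JQ1 against DMSO. The counts moved by over 1.5 times without any 1 of the 18DS and JQ1 libraries in the comparison of 18DS with JQ1, without BKM120 replicate 1 or 3 or DMSO replicate 1 in that of BKM120 with DMSO, without JQ1 replicate 2 or 3 or DMSO replicate 3 in that of JQ1 with DMSO, and in 10 of 12 fits for the departure, the 2 others being those without BKM120 replicate 2 and DMSO replicate 1. *IL6ST* with 18DS against DMSO (-0.015) turned to 0.034 with upper-quartile scaling, and ran from -0.064 to 0.022 with 1 library left out, above 0 without 18DS replicate 1 or 2 or DMSO replicate 1 or 2 (0.0067 to 0.022). Where the text names no cause, the cause was not tested. Replicate numbers did not pair the libraries: correlations of same-numbered deviations ran from -0.128 to 0.0919 over 18 pairs, 0 of them above 0.1. With the replicate block 5 genes met the pattern, the 3 genes among them, and the departures were -0.85 for *ST3GAL6*, -0.88 for *RBMS1* and -0.87 for *CCDC117*. At 141 to 597 counts per library for the 3 genes, the standard error of a pairwise log2 change was about 0.10, which limits the smallest difference detectable at this depth.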
